A study of Gallus gallus with 15 samples.

Results

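Genes of the cell cycle and of DNA replication were examined in abdominal adipose tissue of fed, fasted and insulin-neutralized chickens. Members were chosen by their symbol in the array annotation: MCM, ORC, GINS, RFC, E2F, CDKN, BUB, AURK, PLK and CHEK genes, numbered cyclin-dependent kinases (CDK), the cyclins A, B, D, E, G and H, the DNA polymerase genes POLA, POLD and POLE with a number, the CDC6, CDC7, CDC20, CDC25 and CDC45 genes, PCNA, TOP2A, RRM1, RRM2 and EEPD1. The array carried 91 such genes in 159 probe sets. After removal of low probe sets, 83 genes in 116 probe sets remained, out of 9243 genes in 18612 probe sets on the whole array. The 8 genes with no probe set left were CDC20B, CDK3, CDK5, CDK12, CDK15, CDK18, E2F3 and MCM10. MCM4, MCM7, CDC6, CDK2, CDK4 and cyclin H were not among the 91 and were not analysed here. Of the 83, MCM3AP, CDC73 and CDKN2AIP met the rule through the start of their symbols, without belonging to the families named. MCM3AP is an mRNA export factor named after its binding to MCM3, and CDC73 is a subunit of the Paf1 transcription complex. These genes were given a list of their own. CDKN2AIP, whose product binds the CDKN2A protein, was kept in the list of CDK inhibitors.

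The 15 birds were male commercial broilers of the ISA915 line, 16 to 17 days old, with 5 birds in each group and 1 Affymetrix GeneChip Chicken Genome Array per bird. Fed birds had free access to feed and fasted birds had none for 5 h. Insulin-neutralized birds stayed on feed and received porcine anti-insulin serum at 0, 2 and 4 h, while both other groups were injected with normal porcine serum. The study asked how a short fast and a short loss of insulin action in the fed state change gene expression in this tissue. Values are normalized intensities on the log2 scale, and a difference of 1 is a 2-fold change. A gene with several probe sets was represented by the one with the highest mean over all birds.

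In growing birds adipose tissue gains cells as well as fat. Mature adipocytes are filled with lipid and do not divide, whereas preadipocytes, endothelial cells and blood cells of the tissue can. A cell that is to divide first loads the MCM helicase on its replication origins, with the help of the origin recognition complex (ORC) and CDT1. The helicase is then activated by CDC45 and the GINS complex, and DNA is copied by polymerases tethered by the PCNA clamp, which the RFC complex loads. E2F1 activates many of the genes for these proteins once D-type cyclins with CDK4 or CDK6 have released it from the retinoblastoma protein. Cyclin B with CDK1, the Aurora kinases and the Polo-like kinase PLK1 drive mitosis later in the cycle, and the BUB proteins hold it until chromosomes are attached. In a sample of whole tissue, fewer dividing cells and less RNA in each of them cannot be told apart.

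Fed birds 4 and 5 stood apart on the whole array. Their mean correlation with the other arrays was 0.955 and 0.958, against 0.963 to 0.977 for the other 13 birds, and their poly-A control transcripts averaged 9.84 and 9.65 on the log2 scale, above the 8.78 to 9.43 of the others. Of the other 13, fasted bird 2 had the lowest correlation, 0.963, and fasted bird 5 the next, 0.970. In the fit with array weights fasted bird 2 was weighted 0.55, and fed birds 4 and 5 were weighted 0.22 and 0.24. All other birds were weighted 0.83 or more. The part of fed birds 4 and 5 and of fasted bird 2 in the results was not tested beyond leaving them out. In the actin control, the 3' minus 5' signal, a measure of RNA quality, was 0.94 to 1.18 on the log2 scale in fasted birds. It was 1.21 to 1.52 in insulin-neutralized and 0.90 to 1.44 in fed birds. For the GAPDH and EF1a controls all groups overlapped. The part of RNA quality in the results was not tested.

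In fasted vs. fed birds, 15 of the 83 measured members passed the test, and all 15 were lower (adjusted p under 0.05 by limma). Over all 9243 genes, 10.7% passed the test in this comparison and 5.77% were lower. At an unadjusted p under 0.05, 26 members were reached, beside 27.4% of all genes. The origin licensing and helicase genes held 7 of the 15, from 16 measured: MCM2, MCM3, MCM5, MCM6, ORC6, GINS1 and GINS3. Polymerase and clamp genes held 2 of 13 (POLE2 and POLE3), genes of nucleotide supply and topoisomerase 2 of 4 (RRM2 and RRM2B, beside RRM1 and TOP2A), cyclins 1 of 11 (CCND1) and E2F factors 1 of 6 (E2F1). The remaining 2 were AURKAIP1 and EEPD1, which was included by name with its earlier results in these data known. None of 10 cyclin-dependent kinases passed, nor did any of the 7 genes listed as CDK inhibitors, CDKN2AIP included.

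The median difference of the members in fasted minus fed birds was -0.20 on the log2 scale, against -0.05 for all genes tested. By role it was -0.44 for origin licensing and helicase genes, -0.53 for nucleotide supply with TOP2A, -0.29 for polymerases and clamp, and -0.16 for mitotic kinases and the spindle checkpoint. In insulin-neutralized vs. fed birds 1 of the 83 members passed the test, EEPD1, which was lower. It was included by name with its earlier results in these data known, so this call is a description. Of all genes, 0.595% passed in this comparison and 0.314% were lower. The median difference there was -0.10 for the members and -0.03 for all genes. At an unadjusted p under 0.05, 21 members were reached in this comparison, beside 20.1% of all genes. In insulin-neutralized vs. fasted birds 1 member passed, GINS3, which was higher, beside 4.36% of all genes passing and 1.69% higher. At an unadjusted p under 0.05 there were 11 members, beside 18.4% of all genes, and the median difference was 0.15 for the members and 0.03 for all genes. The first 2 comparisons share the fed birds, and the last shares birds with each of them.

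**Figure D1:**
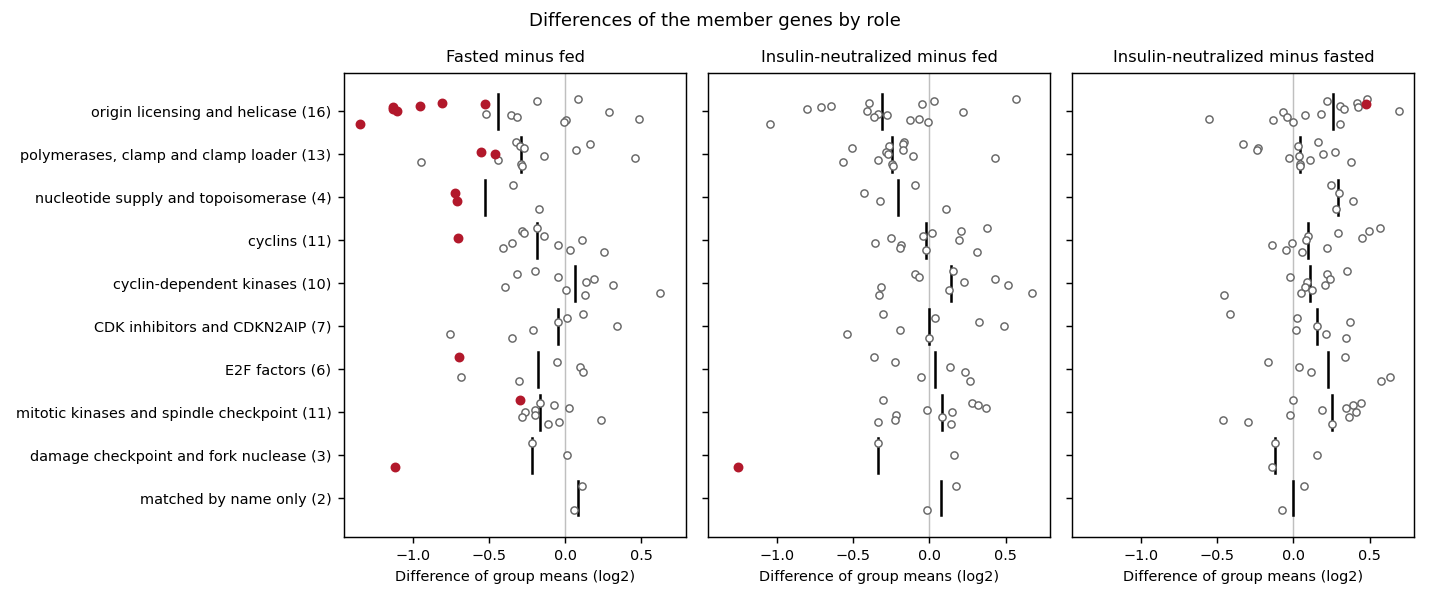
Differences between group means (log2) of the 83 measured member genes in each comparison, 1 point per gene, in rows by role with the number of genes in brackets. Red points passed limma's test at an adjusted p under 0.05, open points did not, and black bars are medians. The 15 red points of fasted minus fed birds all lie below 0, and 7 of them are in the row of origin licensing and helicase genes.

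Among the subunits of the MCM helicase, MCM2 showed the smallest adjusted p of all members. Fed birds 1 to 5 had log2 values of 9.48, 8.81, 9.21, 9.26 and 9.04, and fasted birds 1 to 5 had 8.12, 8.68, 8.15, 8.14 and 7.93. Every fasted bird lay below every fed bird, although fasted bird 2 came near fed bird 2. The mean fell from 9.16 ± 0.25 to 8.21 ± 0.28 (SD, n = 5 each), a difference of -0.95 (SE 0.15) or 1.94-fold, at an adjusted p of 0.00109. Insulin-neutralized birds had 8.34, 8.68, 8.43, 8.50 and 8.61. All 5 lay below the lowest fed bird, which held for 4 members (MCM2, MCM5, EEPD1 and AURKAIP1) and for 2.85% of all genes, but their difference of -0.65 from fed birds did not pass (adjusted p = 0.0656).

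MCM5 and MCM6 each fell by more than 2-fold. MCM5 read 8.93, 8.15, 8.66, 9.09 and 8.21 in the fed birds and 7.15, 8.18, 7.31, 7.35 and 7.39 in the fasted birds. Fasted bird 2 alone reached the range of the fed group. The difference was -1.13 (SE 0.23), or 2.20-fold, at an adjusted p of 0.00713. For MCM6 the fed values were 10.07, 9.67, 9.77, 10.18 and 9.40, and the fasted values 8.80, 9.40, 8.63, 8.41 and 8.32. The groups did not overlap, with the highest fasted bird (bird 2) just below the lowest fed bird (bird 5), and the difference was -1.11 (SE 0.19) at an adjusted p of 0.00253. Groups that do not overlap, with fasted birds lower, were seen for 9 members in all, and for 5.1% of all genes. No member had all fasted birds above all fed birds, which 4.37% of all genes did.

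In insulin-neutralized birds MCM5 averaged 7.81 ± 0.32 and MCM6 9.40 ± 0.13 (SD, n = 5). Both means lay between those of the other groups. Against fed birds the differences were -0.80 for MCM5 and -0.41 for MCM6, with adjusted p of 0.131 and 0.282. Against fasted birds MCM6 was 0.69 higher, at an adjusted p of 0.0594. The MCM6 call rests on the probe set with the highest mean: the other 2 probe sets of the gene, at mean log2 levels of 5.72 and 5.44, differed by -0.39 and -0.13 between fasted and fed birds (adjusted p of 0.521 and 0.906), and with genes represented by the probe set of largest variance MCM6 was not called.

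MCM3 had the same size of change as MCM5 with more spread. Its fed values were 7.69, 7.0, 7.39, 7.96 and 7.19, and its fasted values 6.35, 7.36, 6.22, 5.98 and 5.65. Fasted bird 2 lay above fed birds 2 and 5, and the groups overlapped. The difference was -1.13 (SE 0.29) at an adjusted p of 0.0243. The call was lost when fed bird 1 or 4, or fasted bird 3, 4 or 5, was left out, and adjusted p ranged from 0.00266 to 0.0774 over all alternatives. MCM8 and MCM9, which act in DNA repair in other vertebrates, differed by 0.29 and -0.52 and did not pass.

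ORC6, a subunit of the origin recognition complex, showed the largest change among the members. Fed birds had 8.50, 8.05, 8.27, 7.22 and 8.44 and fasted birds 6.97, 7.27, 6.47, 6.45 and 6.58. Fed bird 4 fell in the range of the fasted birds, and the other 4 fed birds were above them all. The mean fell by 1.35 (SE 0.25), or 2.55-fold, at an adjusted p of 0.00427. The second probe set of ORC6 also fell, by 0.79 (SE 0.20), at an adjusted p of 0.0247. In insulin-neutralized minus fed birds ORC6 differed by -1.05 (SE 0.25), which did not pass (adjusted p = 0.0773). The other ORC subunits did not move as ORC6 did: none of ORC1 to ORC5 passed, and their differences between fasted and fed birds ran from -0.36 for ORC1 to 0.49 for ORC3.

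ORC3 lay on the opposite side from ORC6. Fasted birds had 9.03, 9.54, 9.09, 8.46 and 8.81, fed birds 8.58, 8.30, 8.31, 8.56 and 8.74, and insulin-neutralized birds 8.34, 8.48, 8.50, 8.41 and 8.42. Fasted bird 4 lay inside the ranges of the other groups. The difference from fed birds was 0.49 and did not pass (adjusted p = 0.0723), nor did that from insulin-neutralized birds (adjusted p = 0.0703).

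Both measured subunits of the GINS complex fell with fasting. GINS1 read 7.60, 7.18, 7.88, 7.51 and 7.37 in fed birds and 6.87, 7.14, 6.49, 6.65 and 6.35 in fasted birds, without overlap. Its difference was -0.81 (SE 0.16), 1.75-fold, at an adjusted p of 0.00561. GINS3 read 10.51, 10.37, 10.48, 10.85 and 10.47 in fed birds, 10.05, 9.85, 10.16, 9.93 and 10.06 in fasted birds, and 10.51, 10.41, 10.43, 10.42 and 10.65 in insulin-neutralized birds. The fasted birds stood below both other groups with no overlap, and the insulin-neutralized birds lay within the fed range. GINS3 fell by 0.53 (SE 0.10) against fed birds, with an adjusted p of 0.00426. Insulin-neutralized birds were higher than fasted birds by 0.48 (SE 0.10) at an adjusted p of 0.0158, and differed from fed birds by -0.05 with a 95% interval of -0.26 to 0.16. CDC45, which completes the active helicase, did not pass (0.09 in fasted minus fed birds, SE 0.44); its fed values spread from 6.19 in bird 5 to 8.89 in bird 3.

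**Figure D2:**
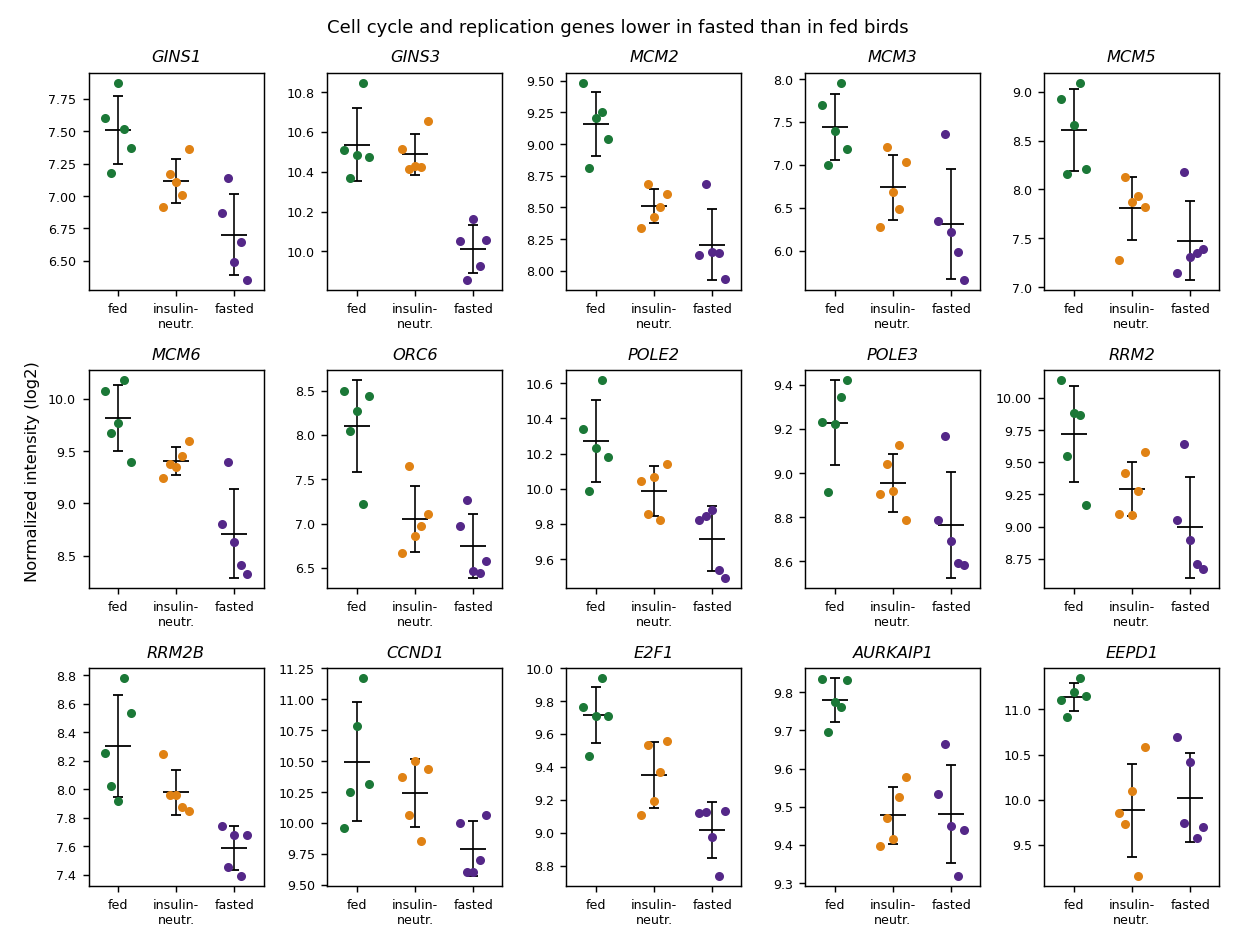
Normalized intensity (log2) of the 15 members that were lower in fasted than in fed birds, 1 point per bird and 5 birds per group, with the mean and SD in black. Vertical axes differ between genes and do not start at 0. MCM2 read 7.93 to 8.68 in fasted and 8.81 to 9.48 in fed birds, whereas MCM3, MCM5, ORC6, POLE3, RRM2 and CCND1 overlapped between these groups.

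Of the polymerase genes, POLE2, the second subunit of the leading-strand polymerase epsilon, was 9.82, 9.84, 9.88, 9.54 and 9.49 in fasted birds and 10.34, 9.99, 10.23, 10.62 and 10.18 in fed birds. No fasted bird reached the fed range. The difference was -0.55 (SE 0.12), or 1.47-fold, at an adjusted p of 0.0118. POLE3, a small subunit of the same enzyme that also takes part in chromatin remodelling, fell by 0.46 (SE 0.13) at an adjusted p of 0.0328. Its groups overlapped because fasted bird 2, at 9.17, lay above fed bird 2, at 8.92. The POLE3 call was lost on leaving out fed bird 1, 3, 4 or 5, or fasted bird 1, 3, 4 or 5, with adjusted p from 0.00698 to 0.130 over all alternatives.

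PCNA, the sliding clamp and a common mark of replicating cells, did not pass. It read 12.28, 12.03, 12.36, 12.49 and 12.25 in fed birds and 11.84, 12.27, 11.99, 11.86 and 11.81 in fasted birds. Only fasted bird 2 entered the fed range, at the level of fed birds 1 and 5. The difference was -0.33 (95% interval -0.56 to -0.10) with an adjusted p of 0.0699. Without fasted bird 2 or fed bird 2 it was -0.41 or -0.39 and passed, and adjusted p ranged from 0.0213 to 0.176 over all alternatives. The clamp loader genes RFC2, RFC3, RFC4 and RFC5 differed by -0.45, -0.95, -0.29 and -0.29 and the large subunit RFC1 by 0.46, and none of the 5 passed. The other 2 probe sets of RFC1 differed by -0.06 and -0.26, on the opposite side. RFC3 lay low on the array, with fasted values of 4.27, 2.68, 4.47, 4.49 and 4.78, of which bird 2 was by far the lowest, and fed values of 5.43, 5.42, 5.22, 4.89 and 4.47.

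Ribonucleotide reductase makes the deoxyribonucleotides for DNA synthesis from a large subunit, RRM1, and a small one, which is RRM2 in S phase or the p53-inducible RRM2B. RRM2 read 10.14, 9.55, 9.88, 9.87 and 9.17 in fed and 9.05, 9.64, 8.90, 8.71 and 8.67 in fasted birds. Fasted bird 2 lay inside the fed range and fed bird 5 inside the fasted range. The difference was -0.73 (SE 0.20) at an adjusted p of 0.0376, and the call was lost without fed bird 1, 3 or 4 or fasted bird 1, 3, 4 or 5 (adjusted p from 0.00479 to 0.102 over all alternatives). RRM2B was 8.26, 8.03, 7.92, 8.78 and 8.54 in fed, 7.74, 7.45, 7.68, 7.39 and 7.68 in fasted, and 8.25, 7.96, 7.96, 7.88 and 7.85 in insulin-neutralized birds. Every fasted bird was below every bird of the other groups. Insulin-neutralized birds lay wholly above fasted birds for RRM2B and GINS3 alone among the members, and for 4.63% of all genes, and wholly below them for POLD3 alone and for 4.94% of all genes. RRM2B fell by 0.71 (SE 0.15) against fed birds at an adjusted p of 0.00955; without fed birds 4 and 5, the highest of their group, it fell by 0.48 and still passed (adjusted p = 0.0284, within 0.00507 to 0.0418 over the alternatives). RRM1 differed by -0.34 and did not pass (adjusted p = 0.0639). Its second probe set, at a mean log2 level of 4.57, differed by -0.05 (adjusted p = 0.871).

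TOP2A, the topoisomerase that untangles sister chromosomes and rises late in the cycle, read 9.20, 8.61, 9.16, 9.51 and 8.70 in fed birds and 8.74, 9.38, 9.11, 8.43 and 8.64 in fasted birds. The groups overlapped. The difference was -0.17 with a 95% interval of -0.65 to 0.30, so a decrease nearly as large as that of RRM2B was not resolved with 5 birds per group.

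Among the cyclins, CCND1, which starts the passage from G1 to S phase in response to growth signals, was 9.96, 10.25, 10.79, 11.17 and 10.32 in fed birds and 9.997, 9.60, 9.61, 9.70 and 10.06 in fasted birds. Fed bird 1 lay below fasted birds 1 and 5. The difference was -0.70 (SE 0.21), 1.63-fold, at an adjusted p of 0.0482, and the second probe set differed by -0.67 (adjusted p = 0.0954). The call was the weakest of the 15: it was lost in 12 of the 15 fits that left out 1 bird, all except those without fed bird 1 or 2 or insulin-neutralized bird 4, and adjusted p ranged from 0.0224 to 0.125 over all alternatives. The other D-type cyclins, CCND2 and CCND3, differed by 0.11 and -0.35 and did not pass, and the other 2 probe sets of CCND2 differed by -0.25 and -0.14. CCNE2, a cyclin of S-phase entry, differed by -0.41 (SE 0.28). CCNA1 spanned 2.18 to 6.63 among the fasted birds, of which bird 2 was the highest, and its difference of -0.19 had an SE of 0.86. CCNE1 was listed at the same value, 6.88, in 6 birds and POLE4 at 7.63 in 7 birds, so the small differences of these probe sets were not resolved. The second probe set of CCNE1 differed by -0.39 (SE 0.15) in fasted minus fed birds and by -0.51 (SE 0.15) in insulin-neutralized minus fed birds. Neither difference passed (adjusted p of 0.114 and 0.131 by limma).

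None of the 10 cyclin-dependent kinases measured passed in any comparison. These were CDK1, CDK6, CDK7, CDK8, CDK9, CDK10, CDK13, CDK14, CDK17 and CDK19, so CDK2 and CDK4 are not covered. CDK1, the mitotic kinase, read 11.32, 10.55, 11.16, 11.06 and 10.53 in fed, 10.85, 11.29, 10.75, 10.26 and 10.46 in fasted, and 10.63, 11.26, 10.90, 11.10 and 11.49 in insulin-neutralized birds. The 3 groups overlapped. The 95% intervals of its difference were -0.67 to 0.27 in fasted minus fed birds and -0.32 to 0.62 in insulin-neutralized minus fed birds. CDK6, a partner of the D-type cyclins, differed by -0.40 in fasted minus fed birds (adjusted p = 0.112). CDK8, a kinase of the Mediator complex, differed by 0.62 and 0.67 in fasted and insulin-neutralized minus fed birds, but its fed mean was drawn down by bird 4, at 6.09, the other fed birds lying between 8.42 and 9.39. Without fed birds 4 and 5 both differences turned, to -0.13 and -0.08. CDK19, its paralogue, read 11.31, 11.22, 11.45, 11.01 and 11.25 in fed birds and 12.05, 11.71, 11.54, 11.88 and 11.65 in insulin-neutralized birds. These groups did not overlap, which held with insulin-neutralized birds higher for 2.14% of all genes, and the difference of 0.52 did not pass (adjusted p = 0.0803).

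The CDK inhibitors hold cells out of the cycle. CDKN1B (p27) varied little: its group means were 12.27 in fed, 12.28 in fasted and 12.30 in insulin-neutralized birds, and the fasted minus fed difference had a 95% interval of -0.17 to 0.19. CDKN1A (p21), a p53 target, spanned 4.72 to 7.63 within the fed group alone, and its difference of 0.11 had an SE of 0.57. CDKN2C (p18) differed by -0.76 in fasted and by -0.54 in insulin-neutralized minus fed birds (adjusted p of 0.201 and 0.436). Its fed values, 8.16, 7.0, 7.37, 6.63 and 8.48, covered the range of both other groups apart from fasted bird 2, at 5.65, and insulin-neutralized bird 4, at 6.56. CDKN3, a phosphatase of CDKs, differed by -0.35 in fasted minus fed birds (adjusted p = 0.354).

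E2F1, the activator of S-phase genes, separated the fed and the fasted birds cleanly. Its values were 9.76, 9.47, 9.71, 9.94 and 9.71 in fed, 9.12, 9.13, 8.97, 8.74 and 9.13 in fasted, and 9.11, 9.53, 9.19, 9.37 and 9.56 in insulin-neutralized birds. All fasted birds were below all fed birds, and the insulin-neutralized birds ran from the fasted range into the fed range. E2F1 fell by 0.70 (SE 0.12) with fasting, 1.63-fold, at an adjusted p of 0.0022, and the call held without each bird in turn and without fed birds 4 and 5. In insulin-neutralized minus fed birds the difference was -0.36 (adjusted p = 0.165). The other E2F genes did not pass. E2F7 and E2F8, which repress E2F targets, differed by -0.69 and -0.31 in fasted minus fed birds, and in E2F7 the fed and fasted ranges overlapped widely, at 4.04 to 6.20 and 3.78 to 6.19.

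EEPD1, an endonuclease that in human cells helps restart stalled replication forks, was the one member that passed in both treatments vs. fed birds. It was included by name with its earlier results in these data known, so its calls are a description. Fed birds read 11.10, 10.91, 11.19, 11.35 and 11.15, fasted birds 10.69, 9.74, 10.42, 9.58 and 9.69. In the insulin-neutralized group the values were 9.85, 9.73, 10.09, 9.16 and 10.58. The fed birds lay close together and above every other bird. EEPD1 fell by 1.12 (SE 0.25), 2.17-fold, in fasted birds at an adjusted p of 0.0138, and by 1.26 (SE 0.25), 2.39-fold, in insulin-neutralized birds at an adjusted p of 0.0462. The treatments differed by -0.14, with a 95% interval of -0.69 to 0.40. The second call was lost in 11 of the 15 fits that left out 1 bird (all except those without fed bird 2, insulin-neutralized bird 5 or fasted bird 1 or 2), with adjusted p from 0.0124 to 0.184 over all alternatives, and the first was lost without fed birds 4 and 5 (-1.04, adjusted p = 0.0595, within 0.00674 to 0.0595 over the alternatives). CHEK1 and CHEK2, the checkpoint kinases that halt the cycle on DNA damage, differed by -0.22 and 0.01 in fasted minus fed birds and did not pass. The second probe set of CHEK1 differed by -0.69 (SE 0.31; adjusted p = 0.191).

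The list of mitotic kinases and the spindle checkpoint held 11 genes: AURKAIP1, AURKB, BUB1, BUB1B, BUB3, CDC20, PLK1 to PLK4 and CDC25A. CDC25A and AURKAIP1 are neither, and PLK2, PLK3 and PLK4 were listed by family rather than for a part in mitosis. The list is called mitotic below for short. Of the 11, 1 passed in fasted vs. fed birds, AURKAIP1, whose product binds Aurora kinase A and is also known as a protein of the mitochondrial ribosome. AURKAIP1 read 9.84, 9.70, 9.78, 9.76 and 9.83 in fed, 9.53, 9.66, 9.45, 9.32 and 9.44 in fasted, and 9.40, 9.47, 9.42, 9.53 and 9.58 in insulin-neutralized birds. The fed birds lay above both other groups by a narrow margin. It fell by 0.30 (SE 0.08) in fasted birds at an adjusted p of 0.0259, and the call was lost without fed bird 1 or fasted bird 3, 4 or 5 (adjusted p from 0.00846 to 0.0849 over all alternatives). PLK1, which drives entry into mitosis, read 9.38, 8.67, 9.66, 9.69 and 8.91 in fed and 8.98, 9.56, 9.19, 8.44 and 8.73 in fasted birds. These ranges overlapped almost wholly, and the difference was -0.28 with a 95% interval of -0.81 to 0.24.

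BUB1B, a checkpoint kinase of the spindle, differed by 0.03 in fasted and by 0.37 in insulin-neutralized minus fed birds, with a 95% interval of -0.18 to 0.92 for the latter. AURKB, BUB1, CDC20 and the cyclins CCNA2 and CCNB1, named after their values were seen, differed by -0.16, -0.08, -0.27, -0.29 and -0.27 in fasted minus fed birds, each with an SE of 0.22 to 0.26. The lower ends of their 95% intervals lay between -0.82 and -0.63, so decreases near the size of the E2F1 change were not resolved. Whether origin genes and mitotic genes differ in their response was not tested.

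**Figure D3:**
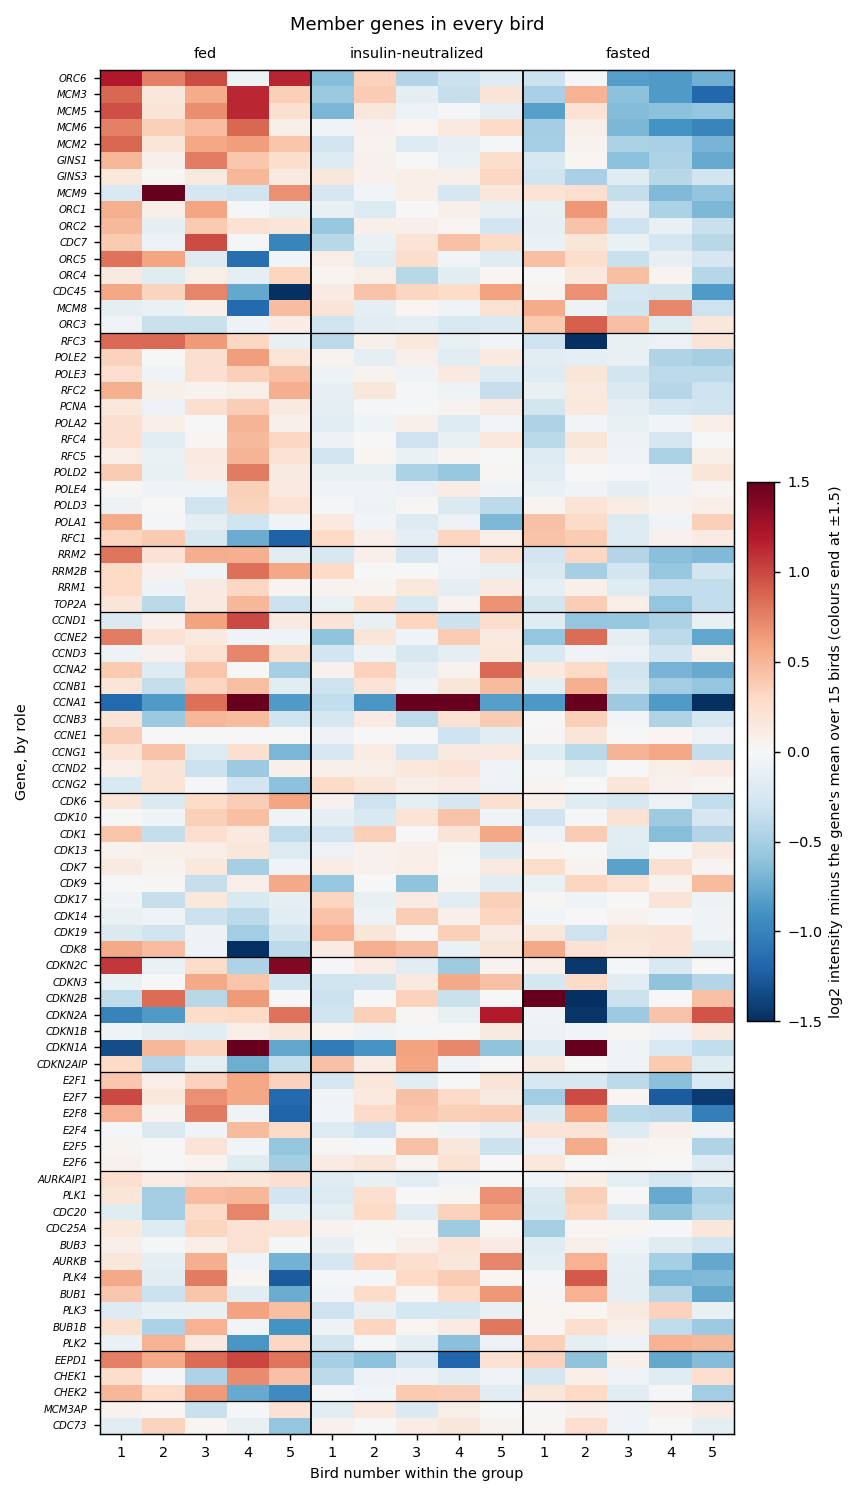
Each of the 83 members (rows, grouped by role and sorted within it by the fasted minus fed difference) in each of the 15 birds (columns), as log2 intensity minus the gene's mean over all birds, with colours ending at ±1.5. ORC6, MCM2, MCM3, MCM5, MCM6 and EEPD1 are red in most fed and blue in most fasted birds, and fasted bird 2 is red for genes of several roles.

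Birds of a group differed among themselves in the origin and mitotic genes. Each member was taken as its deviation from its own mean over the 15 birds. Over the 16 origin genes the median deviation was 0.51, 0.13, 0.51, -0.03 and 0.21 in fed birds 1 to 5, and -0.11, 0.20, -0.33, -0.44 and -0.59 in fasted birds 1 to 5. Insulin-neutralized birds ran from -0.22 in bird 1 to 0.10 in bird 5. Over the 10 cyclin-dependent kinases the fasted birds ran from -0.07 to 0.03 and the fed birds from -0.16 to 0.13. Fasted bird 2 was the highest of its group in 12 of the 16 origin genes and in 8 of the 11 mitotic genes, beside 28.3% of all genes. Fasted bird 5 was the lowest of its group in 10 of the 16 origin genes, beside 26.4% of all genes. Insulin-neutralized bird 1 was the lowest of its group in 11 of the 16 origin genes and in 8 of the 11 mitotic genes, beside 22.7% of all genes.

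Genes of mitosis outside the member list were read in the same way. Among 43 other mitosis genes (kinesins, centromere and condensin proteins and the like), fasted bird 2 was the highest fasted bird in 37 and fasted bird 5 the lowest in 26, beside 28.3% and 26.4% of all genes. In the insulin-neutralized group bird 1 was the lowest in 30 and bird 5 the highest in 24 of these genes, beside 22.7% and 23.4% of all genes. Fed bird 5 was the lowest fed bird in 29 of them, beside 24.0% of all genes, and in 4 of the 11 mitotic members, where fed bird 2 was the lowest in 5. Their median deviation was 0.36, -0.11, 0.49, -0.04 and -0.79 in fed birds, 0.03, 0.38, -0.18, -0.42 and -0.58 in fasted birds, and -0.10 to 0.51 in insulin-neutralized birds. In these genes the fed birds alone covered nearly the whole range of the 3 groups. The median difference of the 43 genes in insulin-neutralized minus fed birds was 0.24, and it turned to -0.06 without fed birds 4 and 5. In fasted minus fed birds it was -0.13 with these birds and -0.36 without them.

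**Figure D4:**
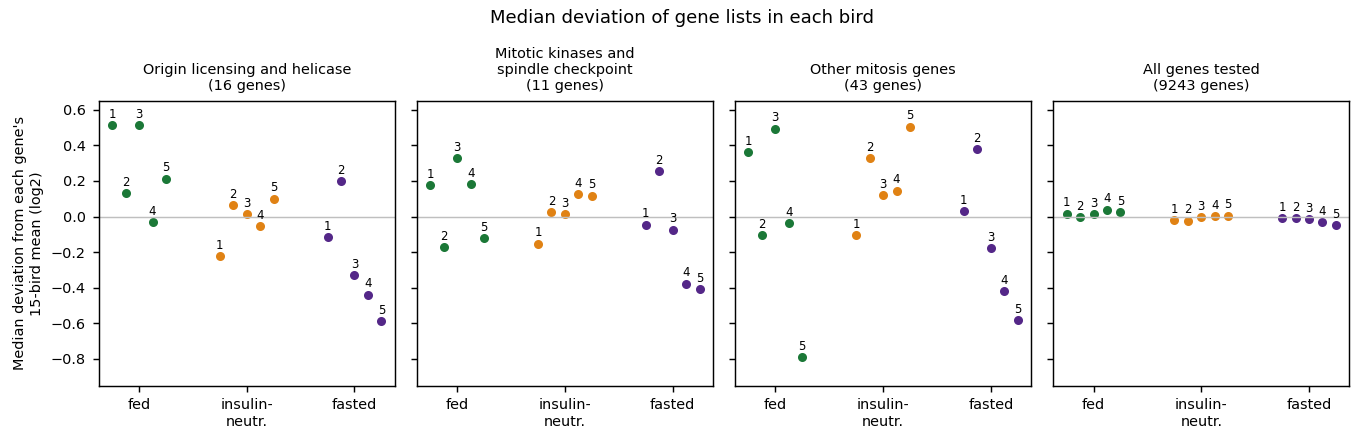
Median deviation (log2) of 3 gene lists and of all genes tested from each gene's mean over the 15 birds, 1 point per bird, labelled with the bird's number in its group. For origin licensing and helicase genes 4 of 5 fasted birds lie below all fed birds, with bird 2 above 0, and for the mitotic lists fed and fasted birds overlap, with fed bird 5 at -0.79 for the other mitosis genes.

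Without fed birds 4 and 5, 10 of the 83 members were called lower in fasted birds and none higher. Of all 9243 genes, 454 were called lower and 447 higher in that fit, 9.75% in all. The 10 members were all among the 15 called with every bird: MCM2, MCM5, MCM6, ORC6, GINS1, GINS3, POLE2, RRM2, RRM2B and E2F1. The median difference of all members was -0.20 with and without fed birds 4 and 5, but those of several roles moved. It went from -0.44 to -0.57 for origin licensing and helicase genes, from -0.29 to -0.16 for polymerases and clamp, from -0.53 to -0.40 for nucleotide supply with TOP2A, and from -0.18 to -0.34 for E2F factors. It turned from 0.07 to -0.11 for cyclin-dependent kinases and from -0.05 to 0.12 for the list of CDK inhibitors. For cyclins it went from -0.19 to -0.12, for mitotic kinases and the spindle checkpoint from -0.16 to -0.20, and for EEPD1 with CHEK1 and CHEK2 from -0.22 to -0.52.

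Of the 15 members that fell with fasting, 13 had an insulin-neutralized mean between the fasted and the fed mean, and the exceptions were EEPD1 and AURKAIP1, at or just below the fasted mean. Of all 533 genes called lower in fasted vs. fed birds, 85.7% lay between in the same way. These genes were selected on the fasted and fed birds, so this order is a description. Against fed birds the insulin-neutralized differences of the 15 ran from -1.26 for EEPD1 to -0.05 for GINS3, and against fasted birds from -0.14 for EEPD1 to 0.69 for MCM6.

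Other genes of the pathway were read from a list of 136, of which 106 were measured. In fasted vs. fed birds 3 of these were lower and 4 higher, against 5.77% and 4.93% of all genes. CHTF18, a subunit of an alternative clamp loader, fell by 0.85 (SE 0.19; adjusted p = 0.0112), from 6.69, 7.03, 6.59, 7.43 and 6.44 in fed to 6.34, 6.23, 5.64, 5.64 and 6.06 in fasted birds. SKP2, the ubiquitin ligase subunit that marks p27 for destruction, fell by 0.49 (SE 0.12; adjusted p = 0.0187). Both calls were lost when insulin-neutralized birds were left out of the fit (adjusted p up to 0.0532 and 0.0676 over the alternatives). CDT1, the licensing partner of the MCM helicase, which is listed here because the study named it and is given after its values were seen, fell by 0.78 (SE 0.19; adjusted p = 0.0197), a call lost without fasted bird 4, without fed birds 4 and 5 together and in 2 other settings.

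Of the 4 genes that rose with fasting, MYC, BTG1 and BTG2 were listed as regulators and CENPP as a mitosis gene. MYC, a growth-promoting transcription factor, was 9.88, 9.86, 9.77, 10.58 and 10.21 in fed, 10.89, 10.98, 11.02, 10.86 and 11.29 in fasted, and 9.87, 10.10, 9.80, 9.76 and 9.87 in insulin-neutralized birds. The fasted birds were above all others. MYC rose by 0.95 (SE 0.15; adjusted p = 0.00107) against fed birds. In insulin-neutralized minus fasted birds its difference was -1.13 (adjusted p = 0.000796). BTG2 and BTG1, which restrain cell division, rose by 0.79 (adjusted p = 0.00168) and 0.45 (adjusted p = 0.0133), and CENPP, a centromere protein named after its values were seen, rose by 0.73 (adjusted p = 0.0432), a call that held only without fed bird 2 or 3 or insulin-neutralized bird 5 among the fits with 1 bird left out.

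In insulin-neutralized vs. fed birds none of the 106 passed at an adjusted p by limma, beside 0.595% of all genes. At an unadjusted p under 0.05 there were 10, beside 20.1% of all genes. CDT1 thus did not pass here, whereas the study listed it as lower in both treatments than in fed birds. The study gave CDT1 a smaller fold change with fasting than the one found here, and it called more genes in this comparison. Whether the study and this fit read the same probe set of CDT1 was not tested. In insulin-neutralized vs. fasted birds 3 were lower, MYC, BTG2 (-0.74) and MDM2 (-0.63, adjusted p = 0.00957), beside 2.67% of all genes. MDM2, the ubiquitin ligase that degrades p53, lay within 9.58 to 9.62 in the 5 insulin-neutralized birds and within 9.93 to 10.49 in the fed birds. Its difference of -0.53 from fed birds did not pass (adjusted p = 0.0656). BTG2 in insulin-neutralized birds, at 12.25 to 12.53, lay in the fed range.

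**Figure D5:**
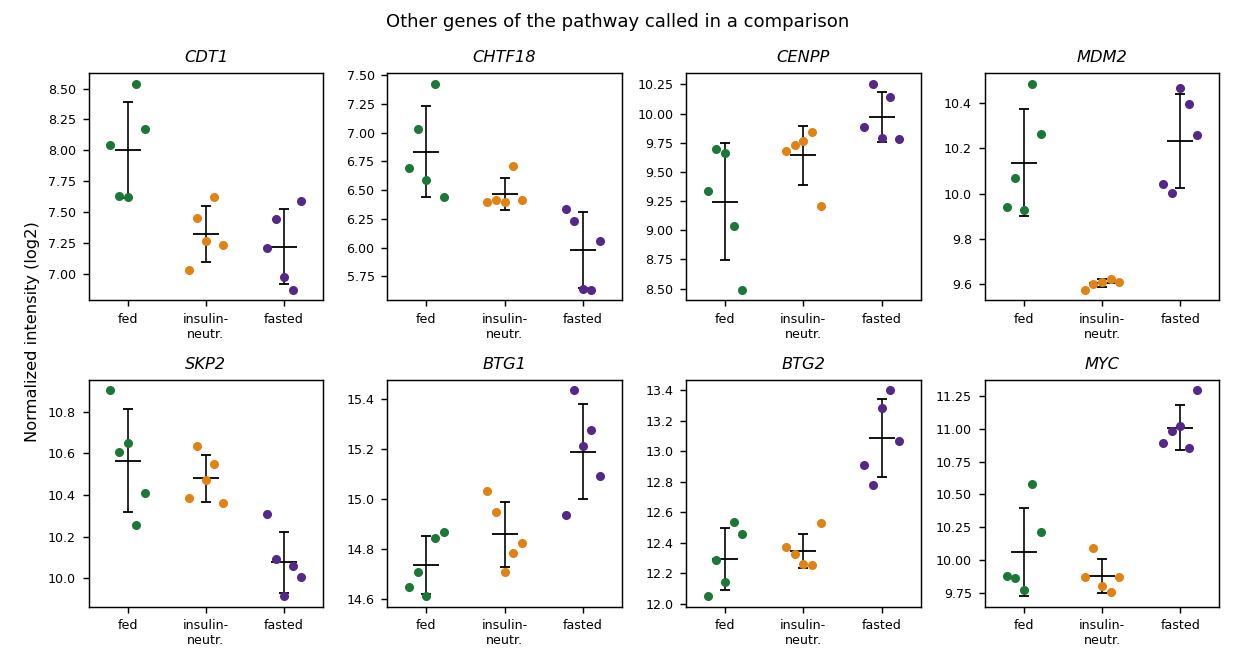
Normalized intensity (log2) of the 8 other pathway genes that passed the test in at least 1 comparison, 1 point per bird and 5 birds per group, with the mean and SD in black. Vertical axes differ between genes and do not start at 0. MYC and BTG2 are highest in the fasted birds, and MDM2 lies at 9.58 to 9.62 in the insulin-neutralized birds.

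Markers of the cells that the tissue can hold were read beside these genes. Adipocyte markers, 8 measured of 10, summed to 17.43 to 17.80 on the log2 scale in fed, 17.51 to 17.80 in fasted and 17.45 to 17.77 in insulin-neutralized birds. Fibroblast and preadipocyte markers, 9 of 10, summed to 17.90 to 18.10, 17.87 to 17.99 and 17.99 to 18.11 in the same order, and none of the 9 passed in fasted vs. fed birds. DLK1, the preadipocyte marker of that list, differed by -1.10 in fasted minus fed birds (adjusted p = 0.194). In insulin-neutralized minus fasted birds it differed by 1.57 (adjusted p = 0.107 by limma). The summed level of these 9 rests mostly on COL1A1, COL1A2 and COL3A1, at fed means of 16.00, 15.92 and 15.91, against 7.70 for DLK1. The fasted mean was below the fed mean for 8 of the 9 and above it for 1, beside 57.2% of all genes below. The insulin-neutralized mean was above the fasted mean for 8 and below it for 1, beside 45.5% of all genes below. Endothelial markers, 7 of 8, summed to 14.26 to 15.32, 15.21 to 15.52 and 15.17 to 15.57, and macrophage markers, 10 of 10, to 16.05 to 16.44, 16.17 to 16.40 and 16.14 to 16.31. T lymphocyte markers, 6 of 8, summed to 10.70 to 11.46, 10.75 to 11.43 and 10.30 to 10.88. Of the markers, PPARG was called lower and PNPLA2, CDH5 and TLR4 higher in fasted vs. fed birds, beside 10.7% of all genes called. In insulin-neutralized vs. fasted birds CIDEC (-0.84, adjusted p = 0.0356) and TLR4 (-1.21, adjusted p = 0.0342) were called lower by limma. Of all genes, 4.36% were called there and 2.67% were lower. TLR4 lay low on the array, at a fed mean of 4.03. Their lists did not move as 1: the fasted mean was below the fed mean for 3 of 8 adipocyte, 2 of 7 endothelial and 2 of 10 macrophage markers. KDR, an endothelial marker, differed by -0.87 (adjusted p = 0.0772 by limma). Mesothelial markers, 3 of 7, ran from 10.98 to 14.21 over all birds with overlap of all groups. Erythroid markers, 2 of 12, and the 1 B lymphocyte marker measured of 7 also overlapped. Smooth and skeletal muscle markers, 5 of 8, summed to 10.47 to 11.29 in fed, 11.10 to 11.62 in fasted and 11.39 to 12.21 in insulin-neutralized birds. In this sum every insulin-neutralized bird lay above every fed bird, though none of the 5 passed. The sum rests mostly on MYH11, at means of 10.41 in fed and 11.38 in insulin-neutralized birds. Of the 5, MYH11 alone did not overlap between these groups, beside 2.14% of all genes with insulin-neutralized birds higher. The insulin-neutralized mean was above the fed mean for 4 and below it for 1, beside 54.7% of all genes below. The part of these cells in the results was not tested.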

How the data were processed

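Total RNA of 15 birds was hybridised to 1 array each. The authors deposited normalized log2 intensity values per probe set, made with R 2.9.0 and GCRMA (background correction by probe sequence, normalization across arrays and summary per probe set). The submitters' processing notes also name RMA.

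After 96 control probe sets, 19827 were removed for values below 3 on at least 5 arrays, as the methods state. Limma 3.58.1 in R 4.3.3 fitted 3 group means to all 15 arrays (12 residual degrees of freedom). P-values were adjusted by Benjamini-Hochberg over the 18612 probe sets kept, within each comparison, and adjusted p under 0.05 was called. The fit was tested on simulated data. Named genes were all members called, in each role the 2 with the largest difference in fasted and the 1 in insulin-neutralized vs. fed birds, MCM2 to MCM7, PCNA, TOP2A, CDK1 and EEPD1, and up to 6 other pathway genes by adjusted p; any other gene named was chosen after its values were seen. Members and lists were chosen with earlier results of these data known. The platform annotation gave 27178 probe sets 1 symbol, 177 several and 11180 none; all 91 member symbols stood in the RefSeq gene table. Array intensities are not counts, so precision rests on how many birds were measured. Whether birds of a group were housed or sampled together is not given in the sources used here. Alternatives were other filters, scalings, weights, adjustments and fits, and each bird left out.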

Additional observations from a re-analysis of the deposited data

Results flagged for a closer look

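Of 111 groups of 5 birds, for the 37 genes named by rule, 8 held a bird whose gap to the next was more than 0.71 of the whole range of its group. Chance alone flags about 1 group in 20. Fasted bird 2 was the bird in 5 of them. It was the highest fasted bird for MCM2 (8.68, others 7.93 to 8.15), MCM5 (8.18, others 7.15 to 7.39) and CCNA1 (6.63, others 2.18 to 3.36), and the lowest for CDKN2C (5.65, others 6.86 to 7.17) and RFC3 (2.68, others 4.27 to 4.78). Fed bird 4 was the highest fed bird for GINS3 (10.85, others 10.37 to 10.51). Insulin-neutralized bird 4 was the highest of its group for CHTF18 (6.71, others 6.39 to 6.42), and insulin-neutralized bird 1 for RRM2B (8.25, others 7.85 to 7.96).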

How the results depend on the processing

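No gene named by rule changed direction in a comparison where it was called, under any alternative run or without any 1 bird. In fasted vs. fed birds the members called numbered 10 to 18 with 1 bird left out (10 without fasted bird 3 or 5, 18 without fed bird 2). They numbered 10 with only the compared groups in the fit or without fed birds 4 and 5, and 18 with array weights. The other pathway genes called numbered 3 with only these groups in the fit, 14 with array weights, and 5 to 12 with 1 bird left out (12 without fasted bird 2). The cause was not tested.

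In insulin-neutralized vs. fed birds the member count of 1 became 0 with no filter, with arrays centred on their medians, with only the compared groups in the fit or without fed birds 4 and 5, 2 with array weights and 6 after joint adjustment over the comparisons. It was 0 to 2 with 1 bird left out. The gene called was not always EEPD1. With array weights EEPD1 was lost and MCM2 and ORC6 were called. Without fed bird 4 the 1 gene was ORC6, and without moderation it was AURKAIP1. The count of other pathway genes became 1 with array weights, after joint adjustment and without fed birds 4 and 5. In insulin-neutralized vs. fasted birds the members numbered 4 with array weights, 3 without fed birds 4 and 5, and 1 to 2 with 1 bird left out, and the other pathway genes 6, 5, and 3 to 4. The median difference of the members with 1 bird left out ran from -0.31 to -0.15, from -0.15 to -0.05 and from 0.09 to 0.17 in the 3 comparisons.

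The labels do not say whether bird numbers pair birds across groups, and the values did not settle it. Correlations of same-numbered deviations ran from -0.39 to 0.38, with 7 of 15 above 0.1. Of the 15 birds, 7 correlated best with their own number. With the replicate block 10 members were called in fasted vs. fed, 0 in insulin-neutralized vs. fed and 1 in insulin-neutralized vs. fasted birds, and AURKAIP1, CCND1, MCM3, POLE3 and RRM2 were lost in the first.

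Differences that were not called and changed sign were those of BUB1B in fasted minus fed birds (-0.15 with array weights, -0.20 without fed birds 4 and 5, -0.17 to 0.19 with 1 bird left out), CCNA1 (0.15 without fed birds 4 and 5; -0.93 to 0.26 with 1 bird left out; in insulin-neutralized minus fed birds -0.022 to 0.83), CDC73 (-0.039 with array weights, -0.059 without fed birds 4 and 5, -0.013 to 0.22 with 1 bird left out), CDK8 (-0.13 and, insulin-neutralized minus fed, -0.081 without fed birds 4 and 5), CHEK1 (0.041 without both) and MCM3AP (-0.024 to 0.11 with 1 bird left out).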
